A study of Mus musculus with 45 samples.

Results

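The transcripts described here encode the proteins of the mitochondrial ribosome. They were taken as every gene symbol in the expression tables that begins with Mrpl or Mrps followed by a digit, leaving out symbols marked as pseudogenes. This gave 77 genes of the 53491 listed, of which 48 carried a large subunit name (Mrpl) and 29 a small subunit name (Mrps). The rule itself uses no measured value. The study followed RNA decay in wild-type mouse cortical cells by SLAM-seq, in which RNA is labelled with 4-thiouridine (4sU) and labelled uridines read out as T-to-C conversions after alkylation. Cortical cells from embryos aged E11.5, E14.5 or E16.5 were cultured in neural progenitor medium with bFGF, labelled with 100 uM 4sU for 20 h and chased with 5 mM uridine for 0, 2, 4, 8 or 12 h. Each stage had 3 replicates, each a pool of 7 embryos at E11.5 and of 2 embryos at the later stages, and each pool was divided over the 5 chase times. The stages therefore differ in embryos and pool size as well as in age. Where 3 values stand in a row for the stages, they are in the order of age, and errors are SDs over the 3 replicates.

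Mitochondria translate a small set of respiratory chain subunits from their own genome, on ribosomes whose RNAs are mitochondrial and whose proteins are all nuclear-encoded. These proteins are made in the cytosol and imported, and many have a bacterial counterpart while others occur only in mitochondria. The large subunit holds the peptidyl transferase centre and the exit tunnel, and the small subunit decodes the mRNA. Symbols do not always match the place of the protein. Mrps30 and Mrps18a sit in the large subunit, and Mrps36 is now known as a subunit of the alpha-ketoglutarate dehydrogenase complex.

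The 45 libraries held between 15.9 M and 43.9 M recovered reads (M, 1e6 reads; median 33.0 M). Markers of progenitors summed to 8913, 3454 and 1299 cpm (reads scaled to a library total of 1e6), and markers of neurons to 2831, 5762 and 8045 cpm. Erythroid markers summed to between 1504 and 3282 cpm in the E11.5 libraries at 0 h and to at most 207 cpm later, and mural and meningeal markers to a mean of 561 cpm at E11.5 and 20.2 cpm or less later. Endothelial markers stayed at or below 3.64 cpm and microglial markers at or below 13.2 cpm. The interneuron markers Gad1, Gad2, Dlx1 and Dlx2 summed to 37.5, 33.4 and 183.2 cpm. From E11.5 to E14.5 they did not move together: Gad1 went from 0.477 to 10.7 cpm and Gad2 from 1.20 to 7.33 cpm. Dlx1 went from 7.95 to 7.25 cpm and Dlx2 from 27.9 to 8.10 cpm. Vim alone made up 6985, 2324 and 708 cpm of the progenitor sums. Among the mural and meningeal markers Dcn went the other way, with 2.72, 8.20 and 5.45 cpm. No listed marker was at 0 in all libraries. The 3 cortical markers found in the tables summed to 804, 400 and 344 cpm. The part that cell composition has in the stage differences below was not tested, and in these bulk libraries fewer cells of a type and less RNA per cell cannot be told apart.

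Half-lives were fitted for each replicate from the fall of the conversion rate over the chase, as far as a transcript had over 500 covered Ts at every time and an R2 over 0.6 in all 3 replicates of a stage. They were obtained for 74, 71 and 73 of the 77 mitoribosomal transcripts, and for 69 of them in every stage. Mitoribosomal transcripts were of middling stability. Their median half-life was 4.76 h ± 0.473 (SD, n = 3), 5.05 h ± 0.0720 and 3.76 h ± 0.0274. All measured transcripts had medians of 4.38 h ± 0.449, 4.56 h ± 0.191 and 3.46 h ± 0.0741. The members thus exceeded all transcripts by 0.379 h ± 0.157, 0.483 h ± 0.213 and 0.306 h ± 0.0506, a ratio of medians of 1.09, 1.11 and 1.09. The excess was positive in each of the 9 replicates, but at E11.5 it was smaller than the SD of the median itself. It was lost when the fit left out the 0 h point: it then stood at −0.0561, 0.0294 and 0.0205 h. Single members were spread on both sides, with 48 of 74, 42 of 71 and 47 of 73 above the median of all transcripts.

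Transcripts of the respiratory chain and of the cytosolic ribosome decayed more slowly. Respiratory chain transcripts, of which 64, 64 and 69 of 89 had a half-life, had medians of 8.31 h ± 1.01, 9.08 h ± 0.373 and 7.41 h ± 0.194. Every respiratory chain transcript measured was above the median of all transcripts at each stage. Cytosolic ribosomal protein transcripts reached 10.4 h ± 1.19, 11.2 h ± 0.601 and 7.15 h ± 0.144, over the 49, 46 and 54 of 83 with a half-life. Among the most stable 10% of all transcripts at E11.5 lay 43 of the 49 cytosolic ribosomal transcripts and 9 of the 74 mitoribosomal ones. The ranges over replicates of the group medians did not overlap between mitoribosomal transcripts and either of these groups at any stage.

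**Figure D1:**
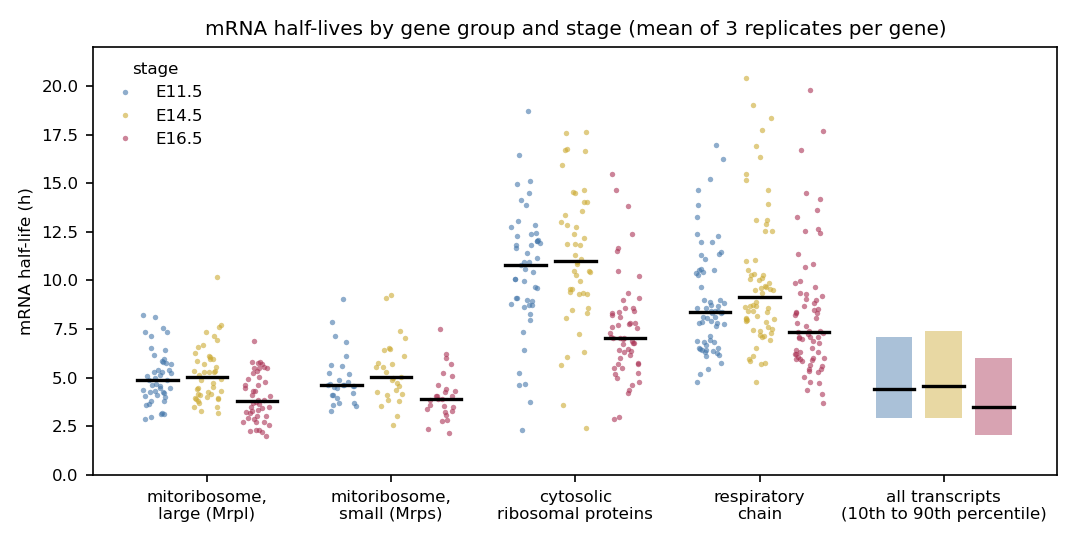
Half-life in hours of each transcript (points, mean of 3 replicates) by gene group and stage, with the median over transcript means (black lines) and the 10th to 90th percentile of all transcripts (bars). The medians of both mitoribosomal subunits lie within the range of the bars, while cytosolic ribosomal protein and respiratory chain transcripts lie above their median with few exceptions.

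Within the mitoribosome, the subunits differed little. Large subunit transcripts had medians of 4.79, 4.97 and 3.69 h, and small subunit transcripts of 4.60, 5.32 and 3.85 h. The large minus small difference was 0.194 h ± 0.234 (SD, n = 3), −0.347 h ± 0.227 and −0.158 h ± 0.0326. With subunits assigned by name, its sign was the same in all 3 replicates of each stage, yet it was opposite at E11.5 and at the later stages. With Mrps30 and Mrps18a counted in the large subunit and Mrps36 left out, the difference was 0.148, −0.535 and −0.280 h. The E11.5 replicates then stood at 0.0548, 0.464 and −0.0760 h and no longer shared a sign. Transcripts of proteins with a bacterial counterpart had medians of 4.91, 5.37 and 3.89 h, and those of proteins found only in mitochondria 4.45, 4.56 and 3.57 h. No test was run on these group medians, since they summarise members and not samples.

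Single members differed by more than the subunits did. Mrpl33, a large subunit protein with a bacterial counterpart, had half-lives of 11.1, 8.81 and 4.87 h in replicates A, B and C of E11.5 cells. They were 10.1, 11.8 and 8.62 h for E14.5 and 6.89, 5.60 and 8.26 h for E16.5 cells. Its replicates spread widely, with an SD of 3.14 h at E11.5. Mrps24, of the small subunit, had means of 9.07 h ± 2.88, 9.25 h ± 1.19 and 5.70 h ± 1.12, and Mrps21, another small subunit protein, 7.17 h ± 1.04, 9.11 h ± 2.18 and 7.52 h ± 1.55. These were the 3 longest means over the stages, and their replicate ranges overlapped one another at each stage. At the other end stood Mrpl1, a protein of the mobile stalk beside the exit site, at 2.86 h ± 0.608, 3.20 h ± 0.395 and 2.23 h ± 0.410. Mrps31, a mitochondria-specific protein, had 3.53 h ± 0.732, 2.57 h ± 0.147 and 2.35 h ± 0.0689, and Mrps2 had 3.28 h ± 0.349, 3.05 h ± 0.253 and 2.18 h ± 0.317. The order among these 3 shifted from stage to stage. The transcripts of the stalk that binds translation factors lay between, with 4.46, 5.29 and 3.46 h for Mrpl12 and 4.26, 3.97 and 3.72 h for Mrpl10. Across the 69 members, the rank correlation of half-lives between stages was 0.845 for E11.5 with E14.5, 0.776 for E14.5 with E16.5 and 0.801 for E11.5 with E16.5, beside 0.872, 0.872 and 0.838 over all 9505 transcripts measured at every stage.

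The other 8 members had no half-life at 1 or more stages. For Mrpl14, Mrpl48, Mrpl52, Mrpl55, Mrps18c and Mrps34 the coverage sufficed and the fit in 1 replicate of a stage fell below the R2 limit, for Mrpl14 in both of the earlier stages. Mrpl23, a protein at the exit tunnel, and Mrps36 lacked coverage in every replicate, with at most 390 and 138 covered Ts at their poorest time. Both are taken up again with their pseudogenes below.

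Between stages, half-lives in hours followed those of all transcripts. Of the 69 members, 65 had a shorter mean at E16.5 relative to E14.5, with a median difference of −1.25 h beside −1.15 h over all transcripts. The size of this difference depended on the fit. It was −0.460 h with background conversions subtracted (56 of 69 shorter, all transcripts −0.444 h) and −0.779 h with the fit begun at 2 h (64 of 69, all transcripts −0.767 h). In 49 of them (71.0%) every E16.5 replicate was below every E14.5 replicate, beside 69.5% of all transcripts. Against E11.5, 65 members were shorter at E16.5 by a median of 0.994 h, where all transcripts differed by −0.907 h. With background subtracted the median was −0.331 h, with 48 of 69 shorter, beside −0.274 h over all transcripts. The replicates did not overlap for 31 of these members, a share of 44.9% beside 51.5% of all transcripts. At E14.5 against E11.5, 46 members were longer, 9 of them without overlap (13.0%, beside 10.8% of all transcripts). The label content differed in parallel. The median conversion rate of members at 0 h was 1.16% ± 0.216, 1.09% ± 0.0920 and 1.71% ± 0.0279, beside 1.19%, 1.13% and 1.85% over all genes, and its part in the shorter E16.5 half-lives was not tested. After 12 h it had fallen to 0.210%, 0.225% and 0.197%, near the 0.235%, 0.237% and 0.210% of all genes.

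To set this shared shift aside, half-lives were turned into z-scores per replicate and compared over the 3 stages with a limma F-test across the 9505 transcripts. Of the 69 members 1 was called at an adjusted p under 0.05, where 3.15% of all transcripts were called. At an unadjusted p under 0.05 there were 13, and 21.7% of all transcripts. In hours without scaling 16 members were called (24.2% of all transcripts), and on centred log2 half-lives 2 (4.4%). The one was Mrps27, a small subunit protein found only in mitochondria. Its half-life was 3.76, 3.77 and 3.62 h in replicates A, B and C of E11.5 cells. It was 3.33, 3.29 and 4.06 h for E14.5 and 5.17, 4.06 and 4.62 h for E16.5 cells. The E16.5 replicates were all above the earlier ones, though the lowest of them nearly met the highest at E14.5, and 65 of the 69 members were shorter at E16.5. Longer half-lives in every replicate were seen for 0.568% of all transcripts against E14.5 and for 1.25% against E11.5. On the z-score scale it was higher at E16.5 relative to E11.5 by 1.02 (SE 0.188, limma adjusted p = 0.0269, where 2.99% of all transcripts were called longer) and than at E14.5 by 1.18 (SE 0.188, adjusted p = 0.0422, all transcripts 0.684%), and the F-test gave an adjusted p of 0.0305. The count of calls fell to 0 in 7 of the 9 fits that left out a replicate. It was also 0 with the replicate letter as a block, but letters do not pair embryos between stages, so that fit tests no pairing. Mrps12, a protein of the decoding site, was shortest at E14.5, with means of 7.85 h ± 1.23, 4.28 h ± 0.413 and 6.01 h ± 1.58. Its E14.5 replicates were all below those of E11.5, as for 2.25% of all transcripts, but the limma adjusted p was 0.0800. Mrps10 was the other member without overlap above E11.5 at E16.5, at 6.24 h ± 1.04 against 4.76 h ± 0.367 (adjusted p = 0.0933).

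**Figure D2:**
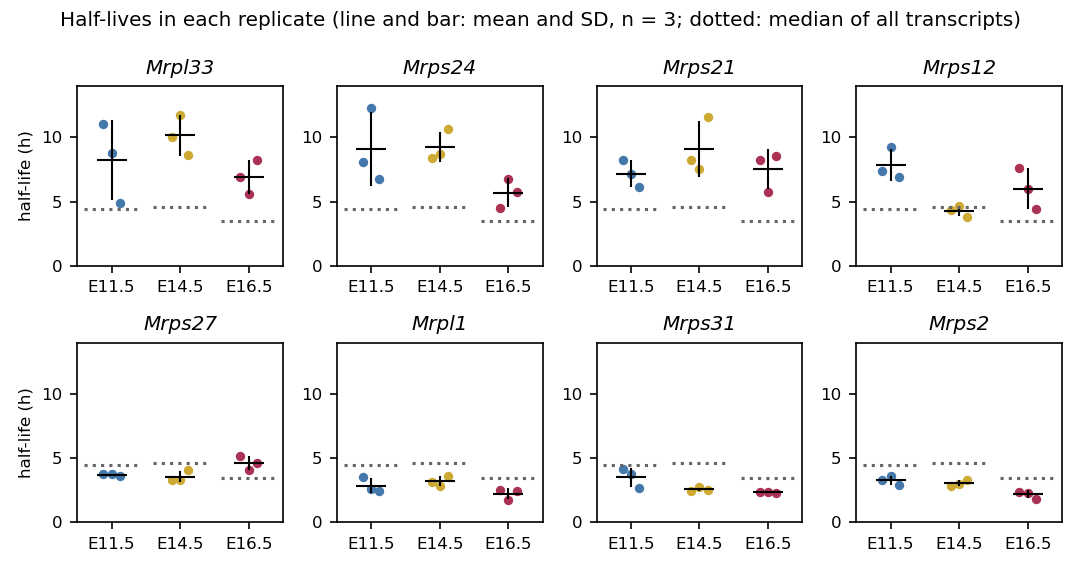
Half-life in hours in each of the 3 replicates (points) at each stage, with mean and SD (lines), for the 3 longest-lived members, Mrps12, Mrps27 and the 3 shortest-lived members. The dotted lines give the median of all transcripts, 4.43 h, 4.60 h and 3.48 h over transcript means, and Mrps27 alone among these 8 has all E16.5 replicates above its earlier ones.

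Per length, the levels of the mitoribosomal transcripts lay above those of most genes and below those of the respiratory chain. Divided by exonic length, the median over the 9 libraries at 0 h was 15.8 cpm per kb, beside 3.93 cpm per kb over all genes tested, 42.3 over respiratory chain transcripts and 10.8 over cytosolic ribosomal protein transcripts. The cytosolic values spread widely, with quartiles of 2.06 and 60.4 cpm per kb. Reads at pseudogenes of the cytosolic and respiratory chain genes were not looked at, so these levels are uncertain. Large subunit transcripts had a median of 17.8 cpm per kb and small subunit transcripts 10.0. The highest per length were Mrpl12 with 56.9, Mrps6 with 56.5 and Mrpl28 with 53.8 cpm per kb, and the lowest Mrpl23 with 0.196, Mrps36 with 0.305 and Mrpl48 with 1.17. Summed over the 77 members, reads made up 3265 cpm ± 179, 3044 cpm ± 29.4 and 2532 cpm ± 23.7. All E16.5 libraries lay below all earlier ones. The large to small ratio of summed cpm was 2.01 ± 0.0156, 2.01 ± 0.0411 and 2.02 ± 0.0175.

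Between E11.5 and E14.5, few members moved at 0 h. The edgeR test called 8 of the 77 higher and 13 lower at E14.5, beside 25.1% of all genes called higher and 23.5% lower, and the median log2 fold change of members was −0.05. The 3 largest rises were in Mrps33, Mrpl30 and Mrps17. Mrps17, of the small subunit, stood at 58.1, 60.9 and 60.3 cpm at E11.5 and at 71.4, 68.1 and 73.3 cpm at E14.5, with no overlap (log2 fold change 0.32, SE 0.0601, adjusted p = 0.000694). Mrpl30 rose by 0.44 (adjusted p = 0.000216) and Mrps33 by 0.55 (adjusted p = 0.00449). Both have pseudogenes at which reads were counted, described below, so their counts are uncertain. The largest falls were in Mrps34, which fell by 0.56 on the log2 scale, Mrpl2, a protein near the peptidyl transferase centre, which fell by 0.43, and Mrpl10, which fell by 0.42 (adjusted p = 0.0134, 0.00214 and 0.000228). Mrps34 shares exon sequence with Nme3 and with Mapk8ip3, so its counts are uncertain.

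At E16.5 the members were lower as a group than at either earlier stage, by small amounts. Against E14.5, 41 of the 77 were called lower and 2 higher, where 25.4% of all genes were called lower and 24.1% higher, with a median log2 fold change of −0.24 over members and −0.00 over all genes. Against E11.5, 39 were lower and 4 higher, beside 33.1% and 31.4% of all genes, with medians of −0.23 and −0.04. Over genes of at least 5 cpm the medians were −0.04 against E14.5 and −0.08 against E11.5. The shares of all genes include genes of low level, and shares over genes of at least 5 cpm are not given. These comparisons share the E16.5 libraries. Of the members, 31 were lower at E16.5 against both stages (40.3%, beside 20.5% of all genes) and 49 against at least 1 (63.6% beside 38.0%). A further count, of members called in no stage comparison, was 23 (29.9% beside 24.9%). Every E16.5 replicate was below every replicate of the other stage for 49 members against E14.5 and for 55 against E11.5, where 32.2% and 39.9% of all genes were. Past a 2-fold change lay only Mrps6, where 5.92% of all genes were lower by that much than at E14.5 and 14.6% lower than at E11.5. For comparison, 50 of 81 cytosolic ribosomal protein transcripts were lower at E16.5 against E14.5 (median log2 fold change −0.54) and 33 of 86 respiratory chain transcripts (−0.17). Whether the groups differ was not tested. Both subunits took part, with 28 of 48 large and 13 of 29 small subunit transcripts lower than at E14.5. Among the 45 members that share no exon sequence with another gene, 22 were lower than at E14.5 and 20 than at E11.5. Without E11.5 replicate B, 7 members rather than 13 were lower at E14.5, and without E11.5 replicate A, E14.5 replicate A or E14.5 replicate C, 5 rather than 8 were higher there. Without E14.5 replicate C, 1 rather than 2 was higher at E16.5 relative to E14.5. The groups compared differ in the cell type markers given above.

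**Figure D3:**
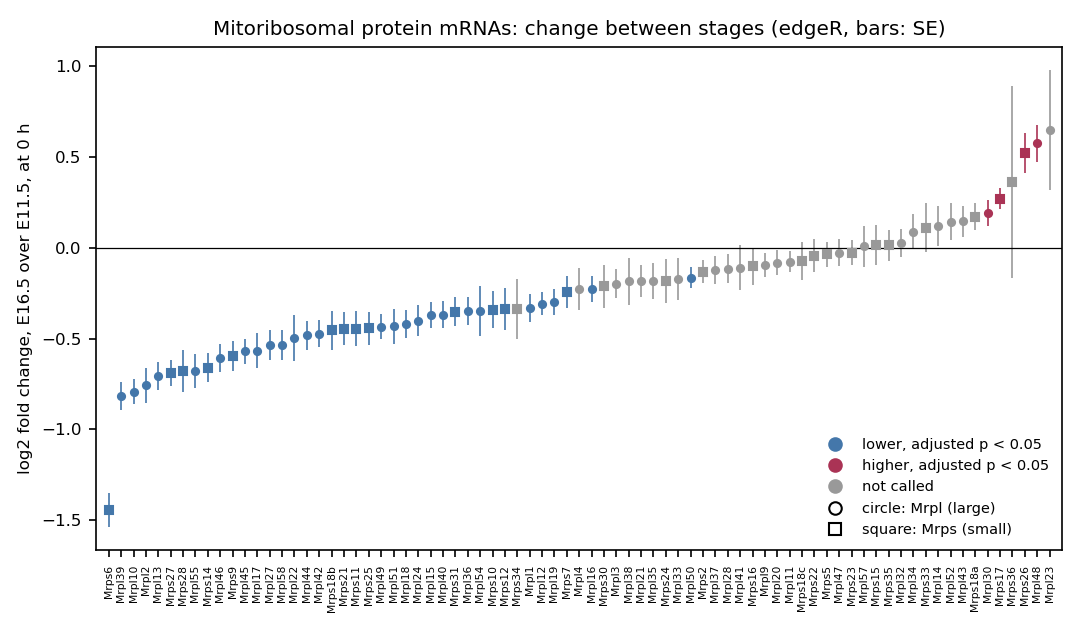
Log2 fold change of each of the 77 members at E16.5 over E11.5 at 0 h, from edgeR, with its SE (bars), ordered by size. Blue members were called lower (39), red higher (4) and grey neither, and Mrps6 stands apart at −1.44.

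Mrps6, a small subunit protein with a bacterial counterpart, showed the largest fall. It stood at 125.1, 129.9 and 112.8 cpm at E11.5, at 81.5, 95.9 and 105.6 cpm at E14.5 and at 38.9, 43.8 and 45.8 cpm at E16.5, without overlap between any of the stages. It fell by 0.33 on the log2 scale to E14.5 (SE 0.0934, adjusted p = 0.00973) and by 1.44 to E16.5 (SE 0.0952, adjusted p = 2.5e-08). The Mrps6 locus (GRCm38 chr16:92058270-92112227, plus strand) shares exon sequence on the same strand with Gm49711 and with Slc5a3, which encodes a myo-inositol transporter. Slc5a3 stood at 394.5 cpm ± 44.9, 265.3 cpm ± 28.2 and 96.1 cpm ± 8.22, and reads on the shared exon sequence cannot be told apart. The half-life of Mrps6 was 4.60 h ± 0.209, 4.56 h ± 0.172 and 3.85 h ± 0.0608, and that of Slc5a3 2.90, 3.11 and 2.59 h.

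Mrpl39, a mitochondria-specific protein, and Mrpl10 came next among the falls from E11.5 to E16.5. Mrpl39 had 58.1, 59.5 and 56.2 cpm at E11.5, 41.6, 39.8 and 46.2 cpm at E14.5 and 31.0, 32.5 and 30.4 cpm at E16.5. It shares no exon sequence with another gene, and fell by 0.82 on the log2 scale (SE 0.0764, adjusted p = 7.34e-07). Mrpl10 had 70.6, 72.5 and 70.6 cpm, then 51.9, 51.2 and 50.4 cpm, then 36.3, 41.9 and 40.1 cpm. It fell by 0.79 (SE 0.0688, adjusted p = 3.64e-07), while its stalk partner Mrpl12 fell by 0.31 (adjusted p = 0.000795). Both Mrpl39 and Mrpl10 stepped down at each stage without overlap and belong to the 7 members called lower in both successive comparisons (9.09%, beside 9.58% of all genes). Mrps14 and Mrpl13 had log2 fold changes of 0.04 and −0.09 from E11.5 to E14.5 that were not called, and fell by 0.70 and 0.62 from there to E16.5 (adjusted p = 1.17e-05 and 2.5e-05). Mrps27, the member with the longer half-life at E16.5, had a lower level there. It stood at 52.7, 54.3 and 50.6 cpm at E11.5, 41.1, 41.5 and 46.5 cpm at E14.5 and 31.3, 30.7 and 31.5 cpm at E16.5, and fell by 0.69 from E11.5 (SE 0.0726, adjusted p = 2.38e-06). It overlaps an exon of a non-coding gene on the other strand, 6430562O15Rik. Mrpl10, Mrpl12 and Mrpl13 also share exon sequence with genes on the other strand, Gm11574, Gm16755 and Mtbp.

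Only 4 members were called higher at E16.5 relative to E11.5, Mrps17, Mrpl30, Mrps26 and Mrpl48. Mrps26, a mitochondria-specific small subunit protein, stood at 20.4, 24.3 and 17.8 cpm at E11.5 and at 29.1, 24.6 and 27.5 cpm at E16.5, all above E11.5 (log2 fold change 0.52, SE 0.110, adjusted p = 0.00109). Mrpl48 stood at 8.4, 8.4 and 7.9 cpm at E11.5 and at 11.2, 10.3 and 12.1 cpm at E16.5 (0.57, SE 0.103, adjusted p = 0.000286). Mrpl48 and Mrps26 share exon sequence with genes on the other strand, Rab6a and 4930473A02Rik. Of the members named for their place or role, Mrpl45, which anchors the ribosome to the inner membrane, fell by 0.57 from E11.5 to E16.5 (adjusted p = 9.84e-06). Mrpl58, a release factor built into the large subunit, fell by 0.54 (adjusted p = 8.48e-05). Among 3 related small subunit names, Mrps18b fell by 0.45 (adjusted p = 0.00238), whereas Mrps18a and Mrps18c had values of 0.17 and −0.07 that were not called. Mrps30 had −0.21 (not called), and Mrps12 fell by 0.34 (adjusted p = 0.0225). Mrpl47, near the exit tunnel, was highest at E14.5, with 33.8 cpm ± 0.256, 39.6 cpm ± 2.65 and 31.4 cpm ± 0.727. It shares exon sequence with Actl6a and Ndufb5 on the other strand. Mrpl58, Mrps18b and Mrps30 share it with Ict1os, Gm16279 and B430218F22Rik on the other strand, and Mrps18c with Gm43511 on the same strand.

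**Figure D4:**
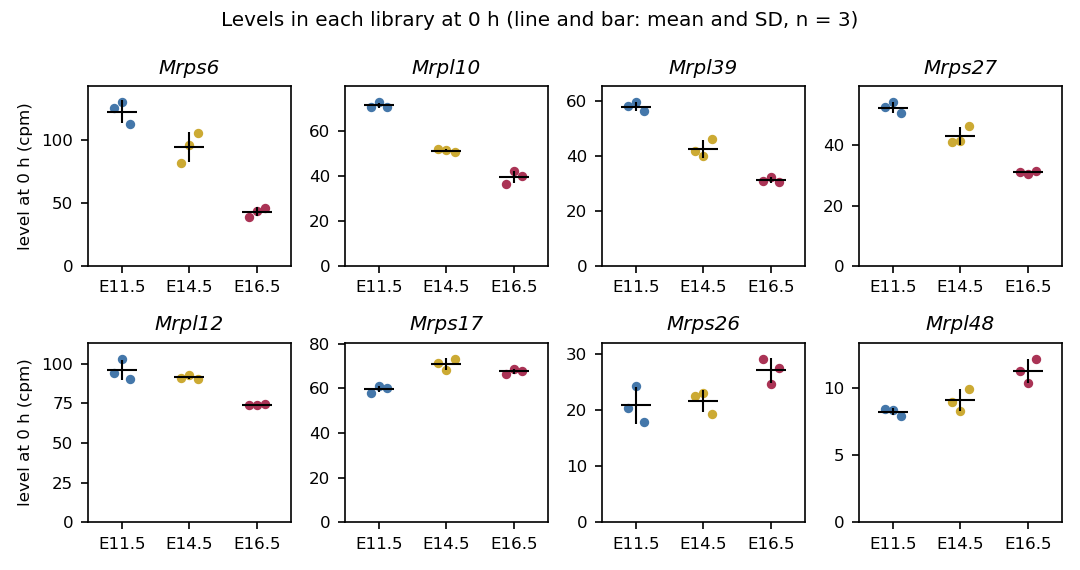
Level at 0 h in cpm of 8 members in each library (points), with mean and SD of 3 replicates (lines), by stage. Mrps6, Mrpl10, Mrpl39 and Mrps27 step down at each stage, Mrpl12 is lower at E16.5, and Mrps17, Mrps26 and Mrpl48 are higher at E16.5 relative to E11.5.

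The other genes of mitochondrial translation are read against the same shares of all genes, 25.4% lower and 24.1% higher at E16.5 relative to E14.5 and 25.1% higher at E14.5 relative to E11.5. Of the 5 subunits whose symbols fall outside the naming rule, 3 were lower at E16.5 relative to E14.5 (median log2 fold change −0.20), and 2 were higher at E14.5 relative to E11.5. One of these was Dap3, a GTP-binding small subunit protein, which stood at 69.4 cpm ± 6.87, 98.3 cpm ± 7.37 and 79.2 cpm ± 1.75. Ptcd3, another small subunit protein, stood at 66.3, 61.8 and 48.4 cpm, and fell by 0.38 from E11.5 to E16.5 (adjusted p = 0.00193). Of 24 factors of mitoribosome assembly and rRNA modification, 9 were lower (37.5%) and 4 higher (16.7%) at E16.5 relative to E14.5, with a median of −0.01. Of 15 translation factors 7 were lower (46.7%) and 1 higher (6.67%), with a median of −0.19. Of 17 mitochondrial aminoacyl-tRNA synthetases 5 were lower (29.4%) and 3 higher (17.6%), near the shares of all genes, with a median of −0.15. Oxa1l, which inserts new proteins into the inner membrane, stood at 137.7, 103.4 and 91.6 cpm and fell by 0.51 (adjusted p = 8.22e-06). Tufm, the mitochondrial elongation factor, stood at 10.7, 8.32 and 9.70 cpm, and Lrpprc, which stabilises mitochondrial mRNAs, at 100.4, 105.0 and 89.7 cpm, with neither called between E11.5 and E16.5. The assembly factors had shorter half-lives than the ribosomal proteins, with medians of 3.61, 4.01 and 2.81 h. The synthetases, at 4.91, 5.26 and 3.89 h, and the translation factors, at 4.41, 4.62 and 3.42 h, were closer to them.

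Regulators known to act on nuclear genes for mitochondrial proteins were looked at for the same stages. Against E14.5, 4 of 14 such genes were lower at E16.5 and 5 higher (28.6% and 35.7%, beside 25.4% and 24.1% of all genes), with a median log2 fold change of −0.15. Against E11.5, 6 were lower and 4 higher (42.9% and 28.6%, beside 33.1% and 31.4%). Nrf1, an activator of many such genes, stood at 81.7 cpm ± 1.80, 67.7 cpm ± 2.78 and 60.3 cpm ± 0.437 and fell by 0.37 from E11.5 to E16.5 (adjusted p = 0.000122). Gabpa, the DNA-binding subunit of the ETS factor GABP, stood at 79.9, 77.7 and 57.7 cpm and fell by 0.41 (adjusted p = 5.59e-05). Tfam, which binds and packages mitochondrial DNA, fell by 0.29, from 70.1 to 54.2 cpm (adjusted p = 0.000712). The other falls from E11.5 to E16.5, also named after their values were seen, included the largest, in Gabpb2. It fell by 1.66, from 50.5 to 15.5 cpm (edgeR adjusted p = 1.33e-08). Pprc1 fell by 0.33 (adjusted p = 0.00735), and Ppargc1b, at a mean of 1.23 cpm at E11.5, by 1.06 (adjusted p = 0.0190). Those higher at E16.5 relative to E11.5, named after their values were seen, were Mycn, a factor of the MYC family, by 1.47 (adjusted p = 4.36e-09), the nuclear receptor Esrra by 0.49 (adjusted p = 0.0026), and Tfb2m and Polrmt, which act in mitochondrial transcription, by 0.44 and 0.36 (adjusted p = 0.00927 and 0.0394). Yy1 stood at 127.6, 88.9 and 119.6 cpm and the coactivator Ppargc1a at 12.6, 7.06 and 11.4 cpm, both called lower at E14.5 relative to E11.5 and higher again at E16.5. Their transcripts had half-lives below those of the members, with a median over the list of 3.44, 3.595 and 2.80 h.

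Over the chase, the number of members called as changed in level depended on whether libraries of the same pool were paired. The counts given first are unpaired. At 12 h against 0 h, edgeR called 1 member higher and 9 lower at E11.5 (all genes 10.3% and 8.18%). It called 2 higher and 0 lower at E14.5 (6.29% and 5.63%), and in E16.5 cells 9 higher and 5 lower (13.1% and 11.4%). At E14.5, 8 members were lower at an unadjusted p under 0.05, and DESeq2 called 2 lower. In this paragraph no share of all genes is given for DESeq2 or for counts at an unadjusted p. Samples with the same letter within a stage came from the same pool, and with the pool as a block the counts of higher and lower members were 6 and 21 (all genes 17.8% and 16.1%), 3 and 4 (10.8% and 9.97%), and 13 and 7 (18.7% and 17.1%). In plain cpm the median gene at E11.5 had a log2 ratio of −0.16 at 12 h over 0 h (genes of at least 5 cpm, pseudocount 1), and of 0.01 after the TMM scaling, to which the calls are relative. In plain cpm 73 of the 77 members were lower at 12 h there. The E11.5 libraries at 12 h also differed in what they held. Gm42418 took between 29686 and 67623 cpm in them and between 3862 and 9482 cpm at 0 h, and the cpm of all listed genes summed to between 828747 and 878313 at 12 h and between 907651 and 920595 at 0 h. Their part in this result was not tested. The counts rest on single libraries, as the closing section gives: at E11.5 the count of lower members was between 2 (without replicate B at 12 h) and 7 with a library left out, and at E16.5 between 1 (without replicate A at 0 h) and 4. Tested as a difference between stages, the change over the chase called 0 members higher and 1 lower for E14.5 minus E11.5 (all genes 1.13% and 4.19%), 2 higher and 0 lower for E16.5 minus E11.5 (2.69% and 4.66%), and 0 in either direction for E16.5 minus E14.5 (0.302% and 0.128%, with 11 higher at an unadjusted p under 0.05). With the pool as a block, in the order of these comparisons, the counts of higher and lower members were 3 and 1 (all genes 3.29% and 8.72%), 3 and 0 (6.54% and 9.75%), and 2 and 0 (2.6% and 1.3%). These were Mrpl9, Mrps15 and Mrps30 higher and Mrps6 lower in the first, Mrpl27, Mrps27 and Mrps28 in the second, and Mrpl27 and Mrps6 in the last.

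Mrpl34, a small large-subunit protein, was called higher at 12 h at every stage. At E14.5 it stood at 32.4, 27.4 and 27.8 cpm at 0 h and at 41.7, 38.2 and 39.1 cpm at 12 h, without overlap (log2 fold change 0.43, SE 0.0960, adjusted p = 0.0166). At E11.5 it stood at 31.4, 36.6 and 28.3 cpm at 0 h and at 38.2, 35.9 and 31.1 cpm at 12 h, so that the times overlapped and pool B was slightly lower at 12 h (log2 fold change 0.32, adjusted p = 0.0431). No member was called higher at E11.5 without replicate A or C at 0 h or without replicate B at 12 h. At E16.5 the fold change was 0.27 (adjusted p = 0.00949). In the other direction, Mrpl54 went from 34.7, 45.4 and 29.5 cpm to 22.5, 21.3 and 19.1 cpm at E11.5 and fell by 0.63 on the log2 scale (adjusted p = 0.0103). It fell by 0.34 at E16.5 (adjusted p = 0.0141), and at E14.5 the value was −0.40 (adjusted p = 0.0624, 0.0141 with the pool as a block). Mrps21 was called higher at E14.5 and E16.5, by 0.33 and 0.44, and Mrpl45 at E16.5, by 0.31. Mrpl47 and Mrpl57 fell by 0.28 and 0.25 at E16.5, while Mrps25 and Mrps33 rose by 0.31 and 0.33. At E11.5 Mrps28 and Mrpl48 fell by 0.43 and 0.42.

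Most members have short coding sequences. In the GENCODE M21 annotation, the median coding length of the 77 members was 588 nt, beside 1191 nt over all protein-coding genes and 1494 nt over those with a half-life at all stages, and 73 of the 77 were below the median of coding genes. Their 5′ UTRs had a median of 91 nt (151 nt over coding genes) with 54 of the 77 below it, and their 3′ UTRs of 399 nt (746 nt) with 44 below it. The 3′ UTRs varied widely, with an upper quartile of 1975 nt and a longest one of 6654 nt in Mrpl17. Over the 69 members with half-lives, coding length and mean half-life had a Pearson r of −0.39 and a Spearman rho of −0.37, beside −0.0752 and −0.13 over 8821 coding transcripts. The coding sequences of the long-lived Mrps21, Mrpl33 and Mrps24 had 261, 321 and 501 nt. Those of the short-lived Mrpl1, Mrps31 and Mrps2 had 1008, 1152 and 873 nt, and that of Mrps27 1245 nt. Single members also departed from this order. Mrpl50, with 477 nt, had half-lives of 3.14, 3.48 and 2.32 h, and Mrpl32, with 561 nt, of 2.96, 4.14 and 2.55 h. The number of ATTTA pentamers in the 3′ UTR had a rho of −0.19 over members and −0.30 over coding transcripts. These are descriptions across genes, which share libraries and are not independent samples.

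Promoters were read from RefSeq (GRCm38.p6), as 250 bases before to 50 bases after the start site, for the 68 members listed there. The ETS motif CCGGAAG, bound by GABP among others, was present on either strand in 24 of them (35.3%), beside 11.9% of all coding promoters. The YY1 motif AAGATGGCG was present in 8 (11.8% beside 1.94%) and the palindromic NRF1 motif in 3 (4.41% beside 1.32%). The CCAAT box stood in 38.2% beside 39.0%, the E-box CACGTG in 7.35% beside 7.90%, and TATAAA in 5.88% beside 13.3%. The NRF1 core GCATGC, added after seeing the data and contained in the palindromic motif, stood in 13.2% beside 8.20%. Of the 28 ETS matches, 25 lay within 100 bases of the start site. A few are shown, from members whose half-lives or levels are described above, with the motif in capitals and the sequence written 5′ to 3′ on the strand that carries it.
Mrps27 (chr13:99344726-99344755, minus strand): gcccgcctccgCCGGAAGtggtcctaccac
Mrps21 (chr3:95871479-95871508, plus strand): gtctctgcggaCCGGAAGcggaagctacgg
Mrps26 (chr2:130563731-130563760, minus strand): ctgcgcccggcCCGGAAGtggccgcggagc
Mrpl34 (chr8:71464878-71464907, plus strand): aactacagctcCCGGAAGgccccgcggcaa
Mrpl58, 1 of its 2 matches (chr11:115403724-115403753, plus strand): ctggcggaccgCCGGAAGagtgagcaccgg
These members moved in different ways. Mrps27, Mrps21 and Mrpl58 were lower at E16.5 relative to E11.5, Mrps26 was higher and Mrpl34 was not called. Of the 24 members with the motif, 13 were lower and 1 higher at E16.5 relative to E14.5, with a median log2 fold change of −0.23, beside −0.24 over all 77 members. A motif match describes letters in the window and was not tested as a binding site.

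For several members, reads were counted at annotated pseudogenes like the gene. A BLAST search of the coding sequences against annotated pseudogene transcripts, at 90% identity or more over at least 50% of the coding length, found 41 pseudogenes of 23 members, of which 37 had a read at 0 h. Together these held 173.9 cpm, beside 2947 cpm at the 77 members (means over the 9 libraries). For 4 members the pseudogenes held more than the gene, and they include both members without coverage. Mrpl23 had 0.957 cpm and its pseudogene Mrpl23-ps1 20.6 cpm, which is 95.5% of the sum. Mrps36 had 0.389 cpm and its 8 pseudogenes 7.67 cpm (95.2%), Mrps33 5.77 cpm and its 2 pseudogenes 8.34 cpm (59.1%), and Mrpl48 9.50 cpm and its pseudogene 11.6 cpm (54.9%). Processed copies lack introns, and whether each pseudogene found is a processed copy was not checked. The 30 bases around a splice junction of each of the members without coverage are shown beside the pseudogene's, with the downstream exon in capitals.
Mrpl23, exons 2 and 3 (chr7:142535113-142535127 and chr7:142536070-142536084, plus strand): ccggatccccatggaGATGACCAGGGTGGA
Mrpl23-ps1 (chr2:74591738-74591767, minus strand): ccggatccccatggaGATGACCAGGGTGGA
Mrps36, exons 1 and 2 (chr13:100744530-100744544 and chr13:100741217-100741231, minus strand): accagggtcgtgcagGTAGTGAAGCCACAC
Mrps36-ps1 (chr17:53866967-53866996, minus strand): accagggtcgtgcagGTAGTGAAGCCACAC
Both pairs are identical over the window. So were 3 of the 4 coding junctions of Mrpl23, 3 of 3 of Mrps36 and 3 of 7 of Mrpl48, while the junction of exons 1 and 2 of Mrpl23 differed at 12 of 30 bases and the other 4 of Mrpl48 at 1 or 2. Reads at the pseudogenes also carried label. Mrpl23-ps1 had a half-life of 8.23 h ± 2.26 and 10.6 h ± 2.16 in the earlier stages, where Mrpl23 itself had none. The Mrps33 pseudogene Gm5776 had 10.5 h ± 2.40, 7.45 h ± 1.24 and 6.83 h ± 2.07, beside 5.66, 7.05 and 5.09 h at Mrps33. Gm5776 was called higher at E14.5 relative to E11.5 by 0.44 and lower at E16.5 relative to E14.5 (−0.59), as Mrps33 was (0.55 and −0.44). The Mrpl48 pseudogene had a log2 fold change of −0.28 at E16.5 over E14.5 (adjusted p = 0.0503), where Mrpl48 itself was called higher by 0.37. Whether reads at a pseudogene came from the gene or from the pseudogene cannot be told apart in these tables. Levels and half-lives of these 4 members are uncertain. The same holds, with a smaller share of the sum at the pseudogenes, for the other members that have one. That share was 37.6% for Mrpl22, 35.4% for Mrpl21, 33.2% for Mrps18c and 31.1% for Mrpl42. It was 28.7% for Mrpl51, 28.2% for Mrps5 and 26.2% for Mrpl27, and between 0.122% and 19.3% for the rest. Among the 54 members without such a pseudogene, 25 were lower at E16.5 relative to E14.5. Both members called higher there, Mrps26 and Mrpl48, have such a pseudogene. At E14.5 relative to E11.5, 3 of the 54 were higher and 12 lower, beside 8 and 13 of all 77 members (all genes 25.1% and 23.5%). At E16.5 relative to E11.5, 1 of the 54 was higher, Mrps17, and 29 were lower, beside 4 and 39 of all 77 (all genes 31.4% and 33.1%). Most members called higher in these comparisons thus have a pseudogene, and their rises are uncertain. Pseudogenes of the cytosolic ribosomal and respiratory chain genes were not searched. How far the levels, half-lives and stage changes of those groups carry the same uncertainty is not known.

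**Figure D5:**
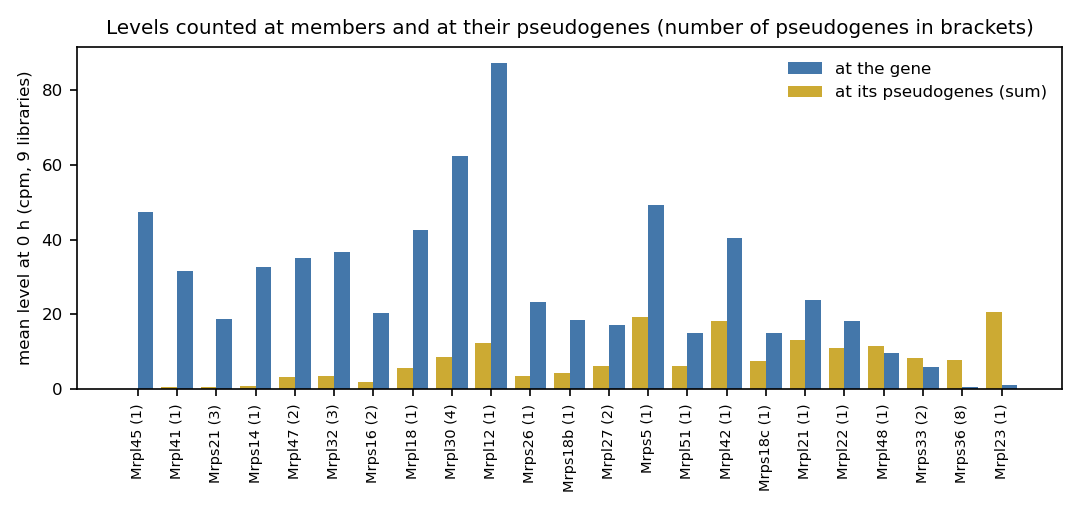
Mean level at 0 h in cpm over 9 libraries, counted at each of 23 members (blue) and summed over its pseudogenes (yellow), with the number of pseudogenes in brackets, ordered by the pseudogene share. For Mrpl48, Mrps33, Mrps36 and Mrpl23, at the right, the pseudogenes hold more than the gene.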

How the data were processed

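Levels and half-lives of 77 transcripts were taken from 9 tables of 45 libraries. Per the methods, the authors processed reads with SlamDunk v0.4.3 on mm10 and GENCODE vM24 exons, and summed covered and converted Ts per gene. The deposited columns hold covered T counts, converted T counts, the conversion rate as a fraction, and reads in CPM. All columns matched a sample. Strand-aware counting and the handling of reads with several matches are not given in the sources used here. Whole reads were recovered from the deposited CPM for 100% of values (tolerance 0.01 read), as an alternative input.

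Half-lives were ln(2)/k of exp(−kx) fitted to rates scaled to 0 h (0 to 24 h, R2 over 0.6). They were z-scored within replicates and tested with limma 3.58.1. Covered T counts were tested with edgeR 4.0.16 (TMM, quasi-likelihood, over 10 covered Ts in every library of the fit). Benjamini-Hochberg adjustment was over all genes tested, with a call at 0.05. The study's own filter was over 10 reads in all samples, so the shares of all genes here include genes with fewer reads. Counts of covered Ts exceed read counts, so p-values rest on the replicate spread that edgeR estimates. DESeq2 1.42.0 was an alternative. Scripts were checked on simulated data. Annotation was GENCODE M21 (GRCm38), and promoters came from RefSeq. Pseudogenes were searched with blastn 2.17.0.

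Same-letter libraries within a stage come from 1 pool, and their deviations from the group means correlated at 0.167 to 0.542. No 2 libraries were identical.

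Named members were the 3 longest and 3 shortest half-lives, those called in the F-test, the 3 largest called rises and falls per comparison, the 3 highest and lowest levels per kb, members without a half-life, and members with a known role, plus regulators and factors fixed by name. Mrps10, Mrpl17, members called in the difference between stages of the change over the chase, and the 4 regulators higher at E16.5 were chosen after their values were seen. So were the regulators Gabpb2, Pprc1 and Ppargc1b. The members and lists were chosen with earlier results of these data known. The cytosolic list left out 11 names that match its pattern but are no ribosomal proteins, 10 of them S6 kinases. Ict1 and Mtrfr did not occur under these names.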

Additional observations from a re-analysis of the deposited data

Results flagged for a closer look

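The change over the chase differed between stages for 3 members, in an edgeR fit of the 0 h and 12 h libraries of all stages that tested the difference itself. For Mrps6, the log2 change from 0 h to 12 h at E14.5 minus that at E11.5 was −0.48 (SE 0.135, adjusted p = 0.0427, where 4.19% of all genes were called in this direction). Its libraries stood at 81.5, 95.9 and 105.6 cpm at 0 h and at 68.0, 80.8 and 83.8 cpm at 12 h of E14.5, and at 125.1, 129.9 and 112.8 and then 121.3, 123.3 and 116.3 cpm at E11.5. At E11.5 the mean went from 122.6 to 120.3 cpm while the fitted change was 0.16, so its direction there depends on the scaling. Mrps6 shares exon sequence with Slc5a3. For Mrpl27, a large subunit protein with a bacterial counterpart that shares exon sequence with Eme1, the change was higher at E16.5 relative to E11.5 by 0.43 (SE 0.117, adjusted p = 0.0296, all genes 2.69%). It went from 21.3, 21.8 and 19.1 cpm to 15.6, 15.5 and 14.97 cpm at E11.5, and from 13.4, 12.99 and 13.97 cpm to 13.5, 15.7 and 16.2 cpm at E16.5. The 2 pseudogenes of Mrpl27 held 26.2% of the cpm summed over gene and pseudogenes at 0 h, so its counts are uncertain. Mrps27 also had a higher change at E16.5 relative to E11.5, by 0.33 (SE 0.0917, adjusted p = 0.0337). With the pool as a block, the adjusted p was 0.000388 for Mrps6, 0.0156 for Mrpl27 and 0.0110 for Mrps27. These 3 calls among 77 members and 3 comparisons were not checked in other libraries.

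Reads also appeared at pseudogenes that no comparison of the members used. These held 20.6 cpm for Mrpl23, 11.6 cpm for Mrpl48, 8.34 cpm for Mrps33 and 7.67 cpm for Mrps36, in each case more than the gene.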

How the results depend on the processing

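Half-lives moved with the fit more than with the replicates. With background conversions subtracted, the median of members was 3.56, 3.76 and 3.21 h in the order of the stages, and with the fit begun at 2 h it was 3.39, 3.33 and 2.57 h. With R2 over 0.8 it was 4.65 and 3.59 h in the later stages, and without an R2 limit 5.18 and 3.798 h. The excess of members over all transcripts reversed at E11.5 with the fit from 2 h (−0.0561 h) and was 0.0294 and 0.0205 h at the later stages. Without an R2 limit it was 0.213 h for E11.5 and 0.235 h for E16.5 cells. The large minus small difference was −0.103 and −0.0810 h in the later stages with the fit from 2 h, and at E16.5 it was −0.116 h with covered Ts over 2000, −0.0869 h with background subtracted and −0.280 h by place in the ribosome. The median half-life difference of members at E16.5 relative to E14.5 was −1.08 h with R2 over 0.8, −0.460 h with background subtracted and −0.779 h with the fit from 2 h, and relative to E11.5 −0.331 h with background subtracted. The fit from 2 h leaves out the 0 h point by construction. The causes of the other shifts were not tested.

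The half-life F-test called 16 members in hours, where 24.2% of all transcripts were called, 2 on centred log2 half-lives, and 0 with a replicate block, and between 0 and 2 with a replicate left out. Letters do not pair embryos between stages (correlations from −0.135 to 0.131), and blocking them left the counts of expression calls between stages within 1.5 times.

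Between stages, E14.5 over E11.5 gave 17 higher members in the 12 h libraries, 5 with limma on log2(cpm + 1) and 5 with log2(cpm + 0.1), and 5 to 12 higher and 7 to 16 lower with a replicate left out (as low as 5 without E11.5 A, E14.5 A or E14.5 C, and 7 without E11.5 B). E16.5 over E14.5 gave 1 higher in the 12 h libraries and with limma on log2(cpm + 0.1), 1 to 2 higher and 30 to 43 lower with a replicate left out. E16.5 over E11.5 gave 8 higher in the 12 h libraries, and 3 to 5 higher and 34 to 43 lower with a replicate left out. The shares of all genes in these alternative fits are not given. The counts therefore show how the member calls move, and not whether members differ from all genes. In the 45 members without shared exons, chosen after seeing the data, the counts of higher and lower were 5 and 5, 0 and 22, and 2 and 20.

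Over the chase, pairing the libraries by pool gave 6 higher and 21 lower at E11.5, and 4 lower at E14.5. Blocked the same way, an alternative chosen after seeing the data, the difference of the change between stages gave 3 higher for E14.5 minus E11.5 and 2 higher for E16.5 minus E14.5. At 8 h in place of 12 h, 0 were higher and 1 lower at E11.5, 0 higher at E14.5 and 4 higher at E16.5. DESeq2's size factors, DESeq2's test, no filter and recovered reads each gave 2 higher at E11.5. No filter gave 1 higher and 1 lower at E14.5, and DESeq2's test and recovered reads each gave 2 lower there. With a library left out, E11.5 had 0 to 3 higher and 2 to 7 lower, E14.5 had 0 to 1 higher and 0 to 3 lower, and E16.5 had 6 to 8 higher and 1 to 4 lower. At E11.5 the count of lower members was 4 or less without any library but 0 h C, and that of higher ones 0 without 0 h A, 0 h C or 12 h B and 3 without 0 h B. At E14.5, 0 were higher without 0 h B and 1 without any other library, and 3 lower without 0 h C. At E16.5, 3 or fewer were lower without any library but 12 h B. Shares of all genes are given above for the fits with the pool as a block. For the other alternative chase counts the share in the same fit is not given.

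The summed level at E16.5 over E14.5 had a log2 ratio of −0.27, which was −0.24 without Mrps6, chosen after seeing the data, and −0.24 for the large subunit by geometric mean. For the small subunit it was −0.21 without Mrps6, and −0.27 over E11.5. Under all alternatives, 236 values and counts stayed within the limits set for them, while 27 values moved, 1 reversed, 19 counts were larger and 47 smaller. Of the single members, 378 values kept direction and side of the threshold and 55 kept the direction only. Low coverage left Mrpl23 and Mrps36 without a half-life, and the 3 replicates limit every F-test call.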
